A study of Rattus norvegicus with 46 samples.

Results

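Gene expression was compared between 3 rats given chlorpyrifos at 50 mg/kg and 3 rats given vehicle, all from the experiment that the study labels A. These 6 arrays were chosen by their labelled experiment, dose and animal number (animals 2, 3 and 4 of each group), out of 46 arrays in the series. Animal 1 of either group was left out because the values in its column did not follow the row order of the table. All 6 rats were male Fisher 344 animals of 11 to 12 weeks, killed 96 h after a single dose. No genetic change is labelled, and the vehicle is not named. Each array carried biotin-labelled RNA of 1 rat, prepared from 15 µg of total RNA out of a piece of about 30 mg of the frontal lobe. Experiment A also held usable arrays of 3 rats at 1 mg/kg and 5 rats at 10 mg/kg, whose values are set beside these where a gene is followed over dose.

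Chlorpyrifos is an organophosphate insecticide. Its oxon metabolite blocks acetylcholinesterase, the enzyme that clears acetylcholine from the synapse, and other serine hydrolases such as butyrylcholinesterase and carboxylesterases. Acetylcholine acts on muscarinic and nicotinic receptors of cortical neurons and raises their excitability. Neuronal firing switches on immediate early genes, a group that rises and decays within hours, so that their RNA level is widely used as a readout of recent activity.

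The 6 arrays were alike in their technical measures. The median deposited intensity was 272.1, 272.8 and 273.9 in the 50 mg/kg rats and 264.1, 263.3 and 275.3 in the vehicle rats. The β-actin 3′ to 5′ ratio, a sign of RNA integrity, was 1.58, 1.59 and 1.25 at 50 mg/kg and 1.53, 1.85 and 1.49 with vehicle. Correlations over probe sets ran from 0.971 to 0.972 within the 50 mg/kg group, from 0.968 to 0.973 within the vehicle group and from 0.958 to 0.975 between them.

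The tissue label was checked against marker genes of the cortex and of neighbouring regions. Slc17a7, the vesicular glutamate transporter of cortical projection neurons, was bright on all 6 arrays, at log2 normalised intensities of 11.09 to 12.73. The pieces also carried markers of deeper regions, and in unequal amounts. The 13 measured hypothalamic region markers include the peptide genes Pmch, Oxt and Avp, described below. The summed intensity of all 13 was 14395, 35053 and 32045 in 50 mg/kg animals 2, 3 and 4, against 12036, 8522 and 12595 in vehicle animals 2, 3 and 4. The other 33 usable arrays of the series spanned 7512 to 30097, so 50 mg/kg animals 3 and 4 lay above every other array. The 22 cortical neuron markers summed to 53423, 39797 and 44333 at 50 mg/kg and to 58873, 64396 and 59194 with vehicle. On this sum 50 mg/kg animal 3 lay under the whole range of the other 33 arrays, 43124 to 67902. The 17 striatal projection neuron markers summed to 29489, 15541 and 34018 at 50 mg/kg and to 30132, 10738 and 10432 with vehicle, so the groups overlapped, and none of the 17 had an unadjusted p under 0.05. The summed intensity of 5 measured olfactory bulb markers was 5625, 4409 and 5842 at 50 mg/kg and 3175, 2778 and 4981 with vehicle, which overlapped. The median member of that list, as log2 intensity minus the gene's vehicle mean, did not overlap: it lay at 1.04, 0.80 and 0.89 at 50 mg/kg and −0.19, −0.49 and 0.27 with vehicle. In 3 of the 5 (Th, Pcp4l1 and Calb2) the 50 mg/kg rats lay above all vehicle rats with an unadjusted p under 0.05, and none passed the test. Over all genes, the 50 mg/kg rats lay above all vehicle rats in 8.92%, and 4.37% were higher at an unadjusted p under 0.05. In such bulk pieces, fewer cells of a type and less RNA per cell cannot be told apart. The part of these region markers in the results that follow was not tested.

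At an adjusted p under 0.05, 4 of 11106 probe sets differed between 50 mg/kg and vehicle, which is 0.0360% (limma over 39 usable arrays, Benjamini-Hochberg adjustment). Pmch rose, and Tnnc2, Dusp1 and a probe set without a gene name fell. At an unadjusted p under 0.05, 453 probe sets (4.08%) were higher at 50 mg/kg and 609 (5.48%) were lower. Within-group spread was alike in the groups, with a median SD on the log2 scale of 0.15 at 50 mg/kg and 0.151 with vehicle.

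Pmch encodes pro-melanin-concentrating hormone, a neuropeptide precursor made by neurons of the lateral hypothalamus. Its log2 normalised intensity was 8.52, 10.61 and 11.14 in 50 mg/kg animals 2, 3 and 4, against 7.72, 7.47 and 7.77 in the vehicle animals. All 3 dosed rats lay above all 3 vehicle rats, but animal 2 was far closer to the vehicle group than animals 3 and 4. The log2 difference was 2.43 ± 0.44 (SE), a 5.41-fold higher level, with an adjusted p of 0.0209. Animals 3 and 4 are the rats with the high hypothalamic marker sums. Those sums include Pmch itself, with Oxt and Avp, so they are not a separate measure. The part of the other markers in the Pmch difference was not tested. The call was lost without 50 mg/kg animal 3 (adjusted p = 0.217) or 4 (0.177) and without vehicle animal 2 (0.0641) or 3 (0.208).

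Tnnc2 encodes the fast skeletal muscle form of troponin C, the calcium sensor of the contractile apparatus. It read 6.99, 6.94 and 6.52 at 50 mg/kg and 8.85, 8.83 and 8.52 with vehicle, so the groups stood apart by a gap wider than either group's spread. The log2 difference was −1.92 ± 0.35 (SE) and the adjusted p was 0.0209. Unlike Pmch, the level in 50 mg/kg animal 2 was like that of animals 3 and 4. The other 8 measured members of the fast skeletal muscle list did not follow it. On the 1 probe set taken per gene, their log2 differences lay between −0.21 and 0.13, no group stood apart and none had an unadjusted p under 0.05. Myh1 was at −0.015 on that probe set, whereas its further probe sets gave 0.33, 0.32, 0.44 and 0.39. Without 50 mg/kg animal 3 or 4 the adjusted p of Tnnc2 was 0.0932 and 0.159, and without vehicle animal 2 or 3 it was 0.0836 and 0.208.

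Dusp1 encodes a nuclear phosphatase that switches off MAP kinases and is itself an immediate early gene. Its level was 9.73, 8.77 and 9.18 at 50 mg/kg and 10.26, 10.61 and 10.53 with vehicle. The highest dosed rat, animal 2, still lay under the lowest vehicle rat. The log2 difference was −1.24 ± 0.24 (SE), with an adjusted p of 0.0336, and a further Dusp1 probe set gave −1.47. Without 50 mg/kg animal 3 or 4 the adjusted p was 0.365 and 0.159, and without vehicle animal 2, 3 or 4 it was 0.0641, 0.335 and 0.0998. The probe set without a gene name read 8.31, 7.77 and 7.27 at 50 mg/kg and 9.33, 9.28 and 9.02 with vehicle (log2 difference −1.43 ± 0.25, SE, adjusted p = 0.0209). Its call, like that of Pmch and Tnnc2, was lost without 50 mg/kg animal 3 or 4 and without vehicle animal 2 or 3 (adjusted p of 0.0641 to 0.208).

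**Figure D1:**
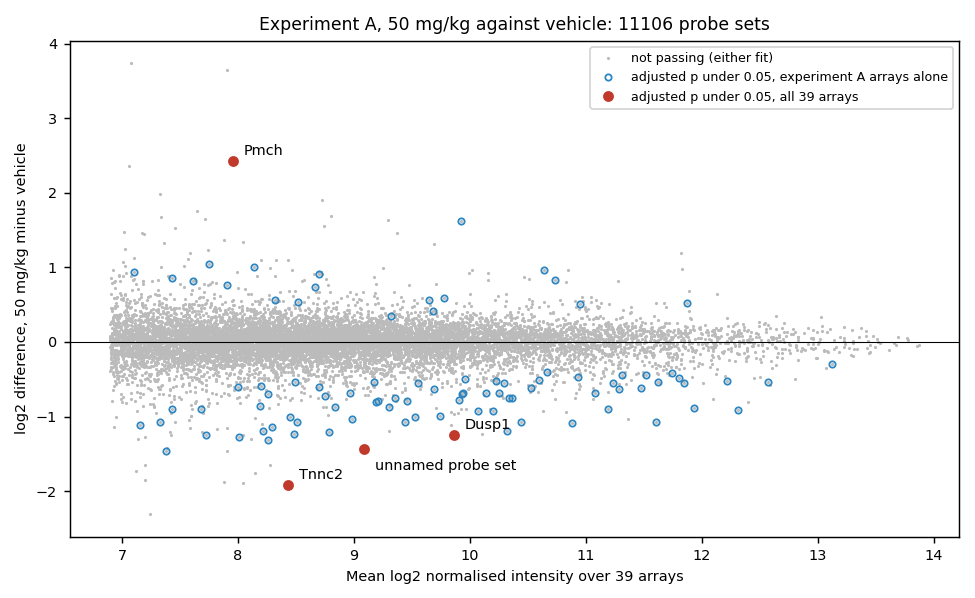
Log2 difference, 50 mg/kg minus vehicle, against the mean log2 normalised intensity over 39 arrays, for 11106 probe sets. Filled red points are the 4 probe sets with an adjusted p under 0.05 in the fit over all usable arrays, and open blue circles are the 94 that passed when experiment A was fitted alone, 74 of them lower at 50 mg/kg.

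The fit over all usable arrays shares 1 estimate of spread among 3 experiments. When the 14 usable arrays of experiment A were fitted alone, 94 probe sets passed: 20 higher (0.180%) and 74 lower (0.666%) at 50 mg/kg, including all 4 above. Of these, 29 belonged to 1 of the 44 gene lists compared. The counts of list members below are at an unadjusted p under 0.05 in the fit over all usable arrays unless a sentence says otherwise. Of 8003 genes taken with 1 probe set each, 350 (4.37%) were higher and 409 (5.11%) lower by that rule, 62 (0.775%) passed with experiment A alone, and the median log2 difference of all genes was 0.02.

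The neuropeptide genes of the hypothalamus differed widely between rats. Oxt, the precursor of oxytocin, read 7.97, 11.64 and 12.21 at 50 mg/kg and 8.72, 5.62 and 6.26 with vehicle. Avp, the vasopressin precursor, read 8.87, 12.41 and 12.76 at 50 mg/kg and 9.34, 7.11 and 6.66 with vehicle. For both genes 50 mg/kg animal 2 lay under vehicle animal 2, so the groups overlapped, while animals 3 and 4 were far above every vehicle rat. Neither passed the test (adjusted p = 0.223 for Oxt and 0.165 for Avp), with log2 differences of 3.74 ± 1.19 and 3.65 ± 1.01 (SE). Gal, the galanin precursor, read 8.48, 9.03 and 9.01 at 50 mg/kg and 7.77, 8.40 and 8.34 with vehicle. Of the 8 measured members of the list, 7 had a log2 difference above 0, and 4 were higher at an unadjusted p under 0.05 and none lower. The 1 member below 0 was Crh, at −0.40 ± 0.31 (SE).

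The wider list of hypothalamic region markers overlaps these peptides but does not hold Crh. Both lists were chosen with earlier results of these data known. All 13 measured members had a log2 difference above 0, against 53.5% of all genes, and the median was 0.80. In 9 members the groups did not overlap, with 50 mg/kg above, against 8.92% of all genes. Resp18, a protein of secretory granules in neuroendocrine cells, read 11.12, 12.03 and 11.88 at 50 mg/kg and 10.92, 10.37 and 10.86 with vehicle. Ecel1, a membrane peptidase-like protein of neurons, read 8.41, 8.93 and 9.05 at 50 mg/kg and 7.84, 6.81 and 6.81 with vehicle. Scg2, the secretogranin from which the peptide secretoneurin is cut, had a log2 difference of 0.83 ± 0.26 (SE, adjusted p = 0.216) and passed in experiment A alone (adjusted p = 0.0476).

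Immediate early genes pointed the other way. All 16 measured immediate early transcription factors had a log2 difference below 0, against 46.5% of all genes, with a median of −0.45. Of them 7 had an unadjusted p under 0.05, and in 5 the 50 mg/kg rats lay wholly under the vehicle rats, against 7.93% of all genes. Nr4a1, an orphan nuclear receptor induced by activity, read 9.95, 8.73 and 9.36 at 50 mg/kg and 9.98, 10.80 and 10.60 with vehicle. Animal 2 at 50 mg/kg and vehicle animal 2 nearly met, whereas the other 4 rats were well apart. Junb, a subunit of the AP-1 transcription factor, read 9.10, 8.41 and 8.39 at 50 mg/kg and 9.05, 9.75 and 9.40 with vehicle, so the groups overlapped through 50 mg/kg animal 2. Fos, named here after its values were seen because it is the usual marker of activity, had a log2 difference of −1.15 ± 0.54 (SE, adjusted p = 0.50).

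Effector genes induced by activity also had mostly lower values. Of 21 measured activity-regulated effectors, 18 had a log2 difference below 0, 9 had an unadjusted p under 0.05 and the median was −0.40. Dusp1 passed the test, and no other member did. Arc, which drives removal of AMPA receptors from active synapses, read 10.29, 8.77 and 9.62 at 50 mg/kg and 10.57, 11.33 and 10.50 with vehicle. Its log2 difference of −1.24 ± 0.33 (SE) had an adjusted p of 0.165. Rasgef1b, an exchange factor for Ras-family proteins, read 9.43, 8.57 and 8.72 at 50 mg/kg and 9.77, 10.02 and 9.92 with vehicle (adjusted p = 0.0548). Homer1, a scaffold of metabotropic glutamate receptors with an activity-induced short form, had a log2 difference of −0.53 ± 0.14 (SE, adjusted p = 0.165). In all 4 of these genes animal 2 was the highest of the dosed rats.

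Activity reaches many of these genes through the transcription factor CREB, which binds the cyclic AMP response element TGACGTCA. RefSeq promoter windows of the GRCr8 build, from 250 bases before to 50 after the gene start, were matched by symbol for 10 of the 16 members of both lists that had an unadjusted p under 0.05 with lower values. The windows of Dusp1, the called gene, and of Junb and Nr4a1, the transcription factors of the list with the lowest p, are printed 5′ to 3′ along the gene's strand. Capitals mark each TGACG and its reverse complement CGTCA, the core of the element, which overlap in the full element. The windows are chr10:17184603-17184902 for Dusp1, chr19:40080876-40081175 for Junb and chr7:134259888-134260187 for Nr4a1, all on the + strand.
Dusp1: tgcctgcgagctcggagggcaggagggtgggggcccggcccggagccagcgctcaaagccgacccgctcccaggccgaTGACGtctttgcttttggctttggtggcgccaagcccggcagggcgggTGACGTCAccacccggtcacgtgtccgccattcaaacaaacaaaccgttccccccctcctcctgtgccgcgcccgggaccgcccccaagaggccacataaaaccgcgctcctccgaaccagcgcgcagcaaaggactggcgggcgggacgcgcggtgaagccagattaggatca
Junb: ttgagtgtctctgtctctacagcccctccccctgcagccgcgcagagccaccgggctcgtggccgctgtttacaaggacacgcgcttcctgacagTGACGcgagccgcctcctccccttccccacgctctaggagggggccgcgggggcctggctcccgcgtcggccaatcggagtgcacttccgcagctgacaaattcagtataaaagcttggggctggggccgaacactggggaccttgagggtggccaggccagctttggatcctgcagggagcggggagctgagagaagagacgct
Nr4a1: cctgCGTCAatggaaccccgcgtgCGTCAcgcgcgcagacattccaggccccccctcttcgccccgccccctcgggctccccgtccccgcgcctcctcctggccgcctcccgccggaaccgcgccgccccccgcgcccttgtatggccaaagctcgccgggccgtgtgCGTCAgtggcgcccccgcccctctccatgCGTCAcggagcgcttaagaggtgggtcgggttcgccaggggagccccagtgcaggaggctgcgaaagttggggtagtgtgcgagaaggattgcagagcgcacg
The Dusp1 window held the full element, which 612 of 33469 RefSeq promoter windows (1.83%) hold, and Nr4a1 held 4 copies of the core. Dusp1 was the only 1 of the 10 matched genes with the full element. The core on either strand occurred in 21.2% of all windows and in at least 1 window of 8 of the 10 matched genes. The first share is per window and the second per gene, so they are not like for like. The other measured members of both lists were not counted. These matches describe the letters only.

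Genes of the presynaptic release site were lower at 50 mg/kg, short of the test. Of 19 measured active zone and SNARE genes, 16 had a log2 difference below 0, 5 were lower and 1 higher at an unadjusted p under 0.05, and the median was −0.27. Stx1a, the plasma membrane SNARE protein that drives vesicle fusion, read 10.42, 10.16 and 9.61 at 50 mg/kg and 11.15, 11.18 and 11.11 with vehicle. The groups were well separated, with a log2 difference of −1.08 ± 0.23 (SE) and an adjusted p of 0.0548. A further Stx1a probe set gave −0.92. The scaffold genes Pclo and Bsn and the vesicle-priming gene Rims1 had log2 differences of −0.79, −0.55 and −0.63. In the fit of experiment A alone, these 3 genes and Stx1a passed (adjusted p between 0.0186 and 0.0374). The vesicle protein gene Syn1 had a log2 difference of −0.46 ± 0.13 (SE, adjusted p = 0.165), among 18 of 23 vesicle genes below 0.

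Postsynaptic and channel genes had the same sign more often than not. Of 27 postsynaptic scaffold and plasticity kinase genes, 24 had a log2 difference below 0, with 6 lower and none higher at an unadjusted p under 0.05. Kalrn, an exchange factor that shapes dendritic spines, read 8.36, 7.27 and 8.12 at 50 mg/kg and 9.18, 9.05 and 9.15 with vehicle (adjusted p = 0.216). The log2 difference of this Kalrn probe set was −1.21, whereas a further Kalrn probe set gave only −0.16. Of 29 potassium channel genes 22 were below 0 and 5 were lower at an unadjusted p under 0.05, and of 20 sodium and calcium channel genes 16 were below 0, with 3 lower and 1 higher. Scn8a, the sodium channel of the axon initial segment, read 6.75, 6.53 and 6.63 at 50 mg/kg and 7.38, 8.03 and 7.73 with vehicle (adjusted p = 0.165, and 0.0186 in experiment A alone).

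The cortical neuron markers share some genes with the synaptic lists, and the immediate early genes Egr1 and Nr4a2 are named among them. The list is thus not a measure of the cortical share apart from activity genes. Most cortical neuron markers had lower values at 50 mg/kg, though none passed the test. Of 22 cortical neuron markers, 20 had a log2 difference below 0, 10 were lower and none higher at an unadjusted p under 0.05, and the median was −0.42. Slc17a7 read 12.06, 11.78 and 11.09 at 50 mg/kg and 12.50, 12.73 and 12.43 with vehicle, and Stx1a is on this list too. Cux2, a transcription factor of upper-layer cortical neurons, read 7.68, 7.52 and 7.45 at 50 mg/kg and 8.36, 8.73 and 8.21 with vehicle. Mef2c, a transcription factor of excitatory cortical neurons, had a log2 difference of −0.76 ± 0.21 (SE, adjusted p = 0.165). Pan-neuronal markers did not share the sign: 6 of 13 were above 0 and 7 below, the median was −0.01 and none had an unadjusted p under 0.05. Whether the synaptic and activity genes differ apart from the cortical share of the pieces was not tested.

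**Figure D2:**
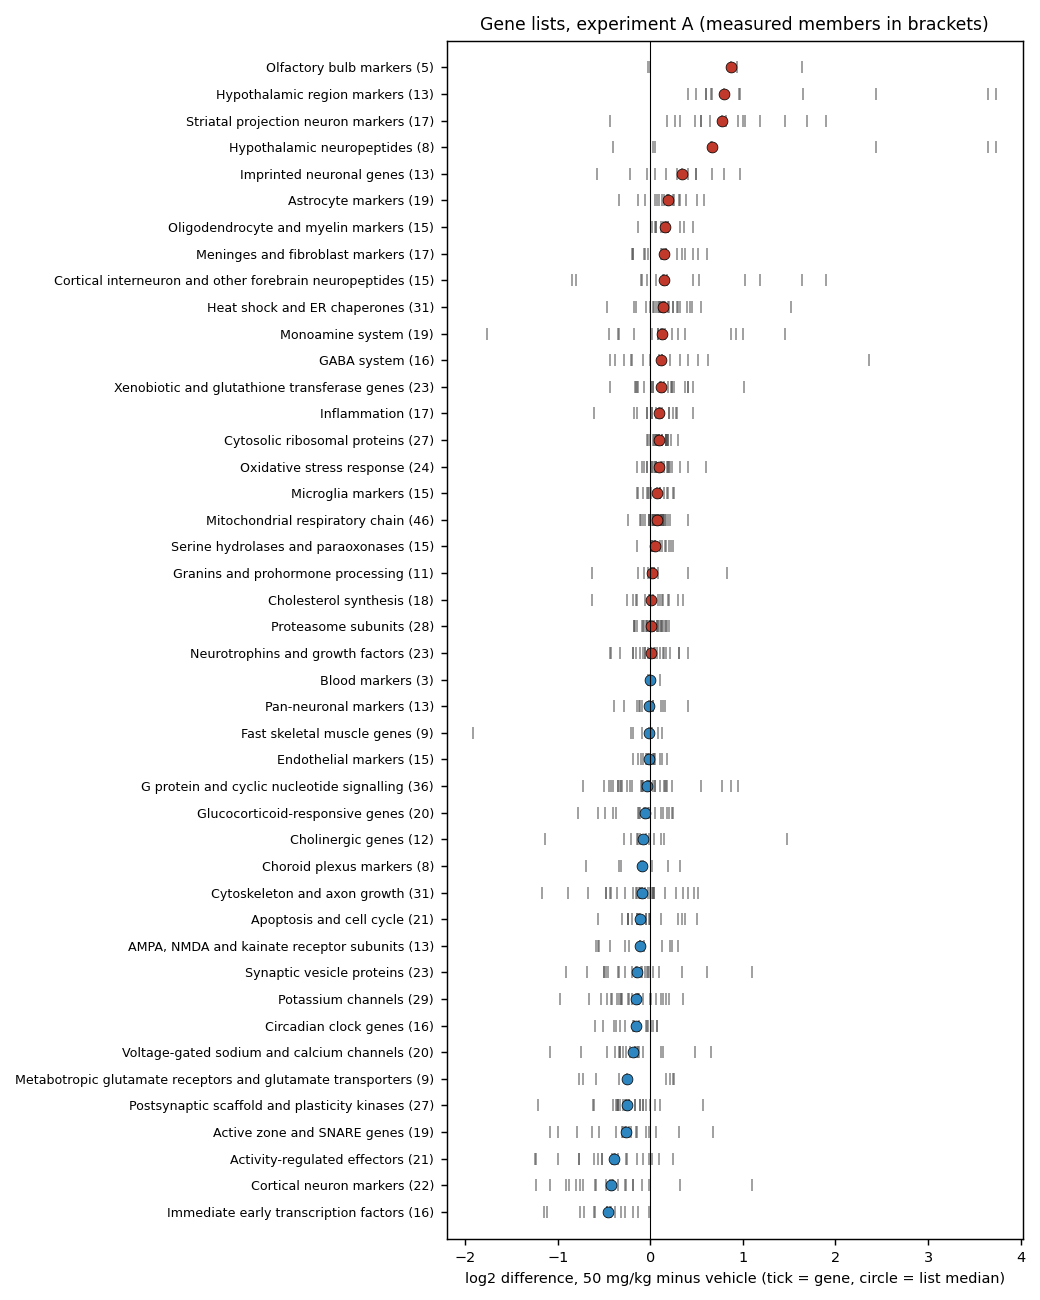
Log2 difference, 50 mg/kg minus vehicle, of every measured member of 44 gene lists (ticks) with each list's median (circles), ordered by the median. Immediate early transcription factors (median −0.45) and cortical neuron markers (−0.42) lie at the low end, and hypothalamic region markers (0.80) lie near the high end.

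No cholinergic gene and no serine hydrolase passed the test. Of 23 cholinergic genes on the list, 12 were measured, 4 with a log2 difference above 0 and 8 below. Slc5a7, the high-affinity choline transporter of cholinergic neurons, read 8.35, 8.05 and 8.80 at 50 mg/kg and 7.77, 6.75 and 6.24 with vehicle. All dosed rats lay above all vehicle rats, with a log2 difference of 1.48 ± 0.48 (SE, adjusted p = 0.242), and it was the only member with an unadjusted p under 0.05. Chrm1, the main muscarinic receptor of the cortex, read 7.18, 6.23 and 5.57 at 50 mg/kg and 7.64, 7.53 and 7.24 with vehicle (log2 difference −1.14 ± 0.61, SE, adjusted p = 0.583). Bche, which encodes butyrylcholinesterase, had a log2 difference of −0.11 ± 0.18 (SE). Ache had no probe set with a single gene symbol in the annotation used and was not analysed here. Of 15 measured serine hydrolases and paraoxonases, 14 had a log2 difference above 0, but all 15 lay between −0.14 and 0.25 on the 1 probe set taken per gene. On those probe sets only Pon2, an intracellular lactonase, had an unadjusted p under 0.05, at 0.25 ± 0.11 (SE, adjusted p = 0.466). Other probe sets could differ more. Mgll was at 0.008 on the one taken, but its further probe sets gave −0.56, −0.53 and −0.34. A further Dpp4 probe set gave −0.27 and a further Fasn probe set 0.10.

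Several detoxification, chaperone and glial genes had higher values at 50 mg/kg, short of the test. Mgst1, a membrane-bound glutathione transferase, read 8.75, 8.76 and 8.92 at 50 mg/kg and 7.64, 7.69 and 8.07 with vehicle. The 3 dosed rats were nearly equal and all above the vehicle rats, with a log2 difference of 1.01 ± 0.25 (SE), and an adjusted p of 0.139 (0.0187 in experiment A alone). Of the 23 xenobiotic and glutathione transferase genes 3 were higher and 1 lower at an unadjusted p under 0.05. Of 31 heat shock and endoplasmic reticulum chaperone genes, 26 had a log2 difference above 0, with 6 higher and 1 lower. Hspb1, a small heat shock protein, read 9.25, 8.29 and 8.81 at 50 mg/kg and 8.03, 6.18 and 7.57 with vehicle (adjusted p = 0.37). Pdia3, a disulfide isomerase of the endoplasmic reticulum, had a log2 difference of 0.45 ± 0.14 (SE, adjusted p = 0.213). Of 24 oxidative stress genes 3 were higher and none lower.

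Astrocyte markers had 16 of 19 members above 0, 7 of them at an unadjusted p under 0.05 and none lower. Their summed intensity was 85243, 89210 and 83396 at 50 mg/kg and 79276, 74994 and 78164 with vehicle, so these groups did not overlap. Slc4a4, the sodium bicarbonate transporter of astrocytes, had a log2 difference of 0.58 ± 0.18 and Mlc1, an astrocyte membrane protein, one of 0.32 ± 0.10 (SE, adjusted p = 0.216 and 0.213). Aqp4, the astrocyte water channel, read 11.78, 11.89 and 11.47 at 50 mg/kg and 11.39, 11.23 and 11.00 with vehicle. Microglia, endothelial, choroid plexus and inflammation lists had no member with an unadjusted p under 0.05 in either direction.

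Further genes stood out by their test statistic with groups that did not overlap. Among those lower at 50 mg/kg were Pip4k2c, a phosphoinositide kinase (−0.70 ± 0.14), and Cyp11b1, the enzyme of the last step of adrenal corticosterone synthesis (−1.31 ± 0.28), both with an adjusted p of 0.0548. Epha4, a receptor for ephrins in axon guidance, had a log2 difference of −1.07 ± 0.25 (adjusted p = 0.093), and Cyfip2, a subunit of the actin-regulating WAVE complex, −0.48 ± 0.11 (0.0886). Olr59, an olfactory receptor gene, read 7.11, 4.64 and 7.58 at 50 mg/kg and 8.35, 8.57 and 8.10 with vehicle, with animal 3 far under the other dosed rats (log2 difference −1.90 ± 0.41, adjusted p = 0.0548). Among those higher were 6330403K07Rikl (1.62 ± 0.37, adjusted p = 0.0811), the RNA-binding protein gene Hnrnpa1 (0.57 ± 0.14, 0.128) and Gpr37l1, an orphan receptor of astrocytes (0.55 ± 0.13, 0.128). Gabra6, a GABA receptor subunit best known from cerebellar granule cells, read 8.73, 7.51 and 10.71 at 50 mg/kg and 6.71, 6.17 and 7.0 with vehicle (adjusted p = 0.188). High Gabra6 values were not confined to 50 mg/kg. Animal 5 at 10 mg/kg read 10.80, above every 50 mg/kg rat, while the other rats at that dose ran from 6.61 to 7.15. At 1 mg/kg the rats read 8.30, 7.01 and 6.60. Errors here are SE, and none of these genes passed in the fit over all usable arrays. With experiment A alone, Pip4k2c, Cyp11b1, Epha4, Cyfip2, 6330403K07Rikl and Hnrnpa1 passed (adjusted p of 0.0141 to 0.0358), and Olr59, Gpr37l1 and Gabra6 did not.

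Followed over dose, the 3 named genes that passed were not ordered by it. The comparisons at 1 and 10 mg/kg use the same vehicle rats as that at 50 mg/kg. Dusp1 averaged 10.47 ± 0.18 with vehicle, 9.23 at 1 mg/kg, 10.36 at 10 mg/kg and 9.22 ± 0.48 at 50 mg/kg (SD, n = 3 for vehicle and 50 mg/kg). At 1 mg/kg all 3 rats (9.38, 8.82 and 9.5) lay under all vehicle rats, and the log2 difference from vehicle was −1.23 ± 0.24 (SE, adjusted p = 0.147). At 10 mg/kg the 5 rats ran from 10.24 to 10.51 around a median of 10.35. Arc was also lower at 1 than at 10 mg/kg, with 9.71, 8.78 and 9.49 at 1 mg/kg and a range of 9.99 to 10.90 at 10 mg/kg, but its mean was lowest at 1 mg/kg (9.33, against 9.56 at 50 mg/kg).

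Pmch read 8.07, 9.13 and 7.70 at 1 mg/kg and ran from 7.43 to 8.14 at 10 mg/kg, where it met the vehicle range. Tnnc2 read 8.49, 6.91 and 8.15 at 1 mg/kg and ran from 8.53 to 8.86 at 10 mg/kg. Animal 2 at 1 mg/kg thus had a Tnnc2 level as low as the 50 mg/kg rats. In that rat Oxt was 12.05 and Avp 11.41, as in 50 mg/kg animals 3 and 4, and Arc (8.78) and Dusp1 (8.82) were the lowest of the 1 mg/kg group. Stx1a was not lowest in that rat, at 10.77, 10.84 and 10.98 at 1 mg/kg and between 10.82 and 11.30 at 10 mg/kg. The Stx1a values at 1 mg/kg lay under all vehicle rats and above all 50 mg/kg rats.

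**Figure D3:**
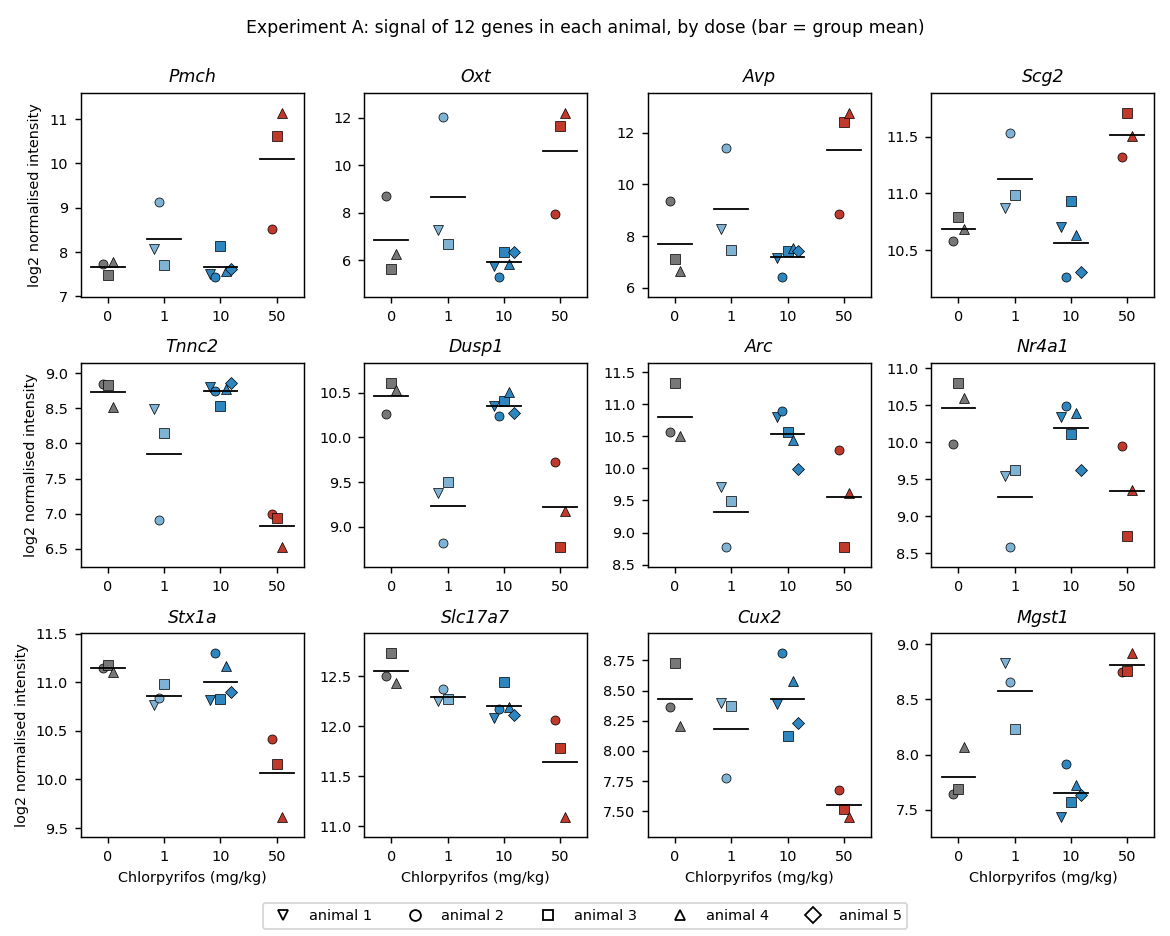
Log2 normalised intensity of 12 genes in every usable animal of experiment A, by chlorpyrifos dose in mg/kg (0 is vehicle), with marker shape for the animal number and a bar for the group mean. Tnnc2, Dusp1, Stx1a and Cux2 at 50 mg/kg lie under all vehicle rats, while Oxt and Avp are high in 50 mg/kg animals 3 and 4 and in 1 mg/kg animal 2.

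The lists differed among the 3 dosed rats themselves. The median immediate early transcription factor, relative to its vehicle mean, lay at −0.10, −0.76 and −0.57 in 50 mg/kg animals 2, 3 and 4, against −0.13, 0.20 and 0.07 in the vehicle animals. Animal 2 therefore sat within the vehicle range. Cortical neuron markers lay at −0.08, −0.54 and −0.61 at 50 mg/kg and −0.05, 0.13 and 0.01 with vehicle, with animal 2 just under the lowest vehicle rat. Hypothalamic region markers lay at 0.40, 1.30 and 0.83 at 50 mg/kg and 0.12, −0.34 and 0.12 with vehicle, with animal 2 again the nearest to the vehicle rats. These shifts were not confined to 50 mg/kg. At 1 mg/kg immediate early transcription factors lay at −0.26, −0.66 and −0.26. Cortical neuron markers lay at −0.22, −0.27 and −0.07 there, and hypothalamic region markers at 0.40, 0.96 and 0.17. All these values were outside the vehicle range. At 10 mg/kg the median log2 differences from vehicle were −0.17, −0.09 and −0.04 in the same order. Without 50 mg/kg animal 2 the test called 13 probe sets higher and 43 lower, and without animal 3 it called none (329 higher and 453 lower at an unadjusted p under 0.05).

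**Figure D4:**
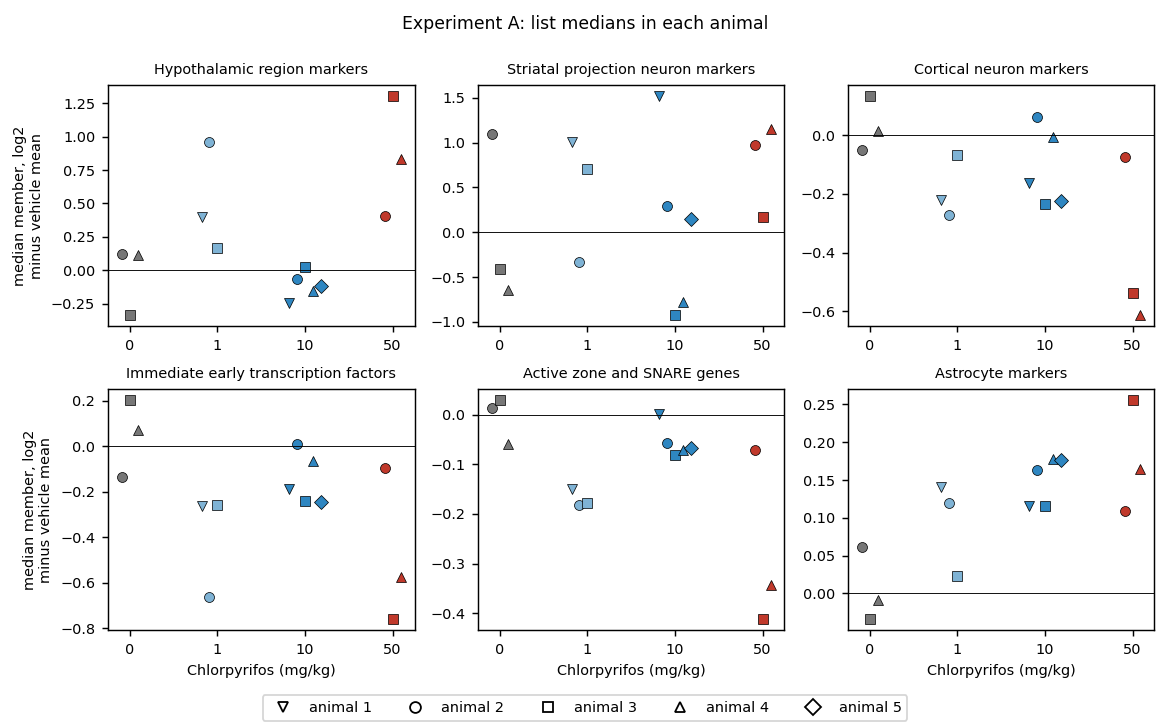
Median over the members of 6 lists, as log2 intensity minus the vehicle mean of each gene, in every usable animal of experiment A by dose in mg/kg (0 is vehicle). At 50 mg/kg, animal 2 (circle) sits at −0.10 for immediate early transcription factors and −0.08 for cortical neuron markers, while animals 3 and 4 lie at −0.54 or lower on both.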

How the data were processed

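The deposited table held 1 linear intensity per probe set and array, per the file headers; summarisation software and background correction are not given in the sources used here. Of 46 arrays, 39 shared 1 row order and were used. The other 7 correlated with them at −0.0068 to 0.0025. Intensities were scaled to equal medians, floored at 10.9 (5th percentile), put on the log2 scale and quantile normalised. After removal of 57 control probe sets, the 11106 of 15866 with a mean at or above the 30th percentile were tested (limma 3.58.1, 1 mean per experiment and dose, trended prior, Benjamini-Hochberg). The fit was tested on simulated data with independent noise, where 8.37% of its calls were false. It recovered 87% of 100 probe sets changed by 1 log2 unit and 99% of 100 changed by 2. These rates hold for that number of changed probe sets and for noise of equal size in every group. In the data Avp and Gabra6 differed by 3.65 and 2.36 log2 units and did not pass. The rates thus do not show that genes without a call were unchanged. Variation shared among genes was not simulated. Symbols came from the platform table, with 12748 of 12783 single-symbol probe sets matched by gene ID to RefSeq (GRCr8). A gene was read from its brightest probe set on average.

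Named genes were those past the threshold, the 12 highest and 12 lowest by moderated t whose groups did not overlap, and up to 4 per gene list by absolute t. Members and lists were chosen with earlier results of these data known. The labels do not name separate batches. In the fit over all usable arrays, p-values rest on the spread between animals within the groups of all experiments. They do not measure the spread of the compared animals alone. The small number of animals compared limits the precision. Alternatives changed the scaling, floor, filter, arrays in the fit, replicate block, prior and array weights, or left out 1 array.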

Additional observations from a re-analysis of the deposited data

Results flagged for a closer look

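Of 18 genes with the largest test statistics or in the hypothalamic peptide list, 2 had 1 rat far from the others among the 5 rats at 10 mg/kg in experiment A, where chance gives about 1 in 20. For Pmch it was animal 3, at 8.14 on the log2 scale against 7.43 to 7.61 in the other 4 rats. For 6330403K07Rikl the outlying value was 9.77, above the other rats at that dose.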

How the results depend on the processing

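The counts of called probe sets, 1 higher and 3 lower, depended on most choices. They were 3 and 10 with a floor at the 20th percentile, 0 and 0 with no filter on dim probe sets (601 and 729 at an unadjusted p under 0.05), and 0 and 3 with a filter at the 50th percentile. Pmch lay under that last filter and was not tested there. The counts were 20 and 74 with experiment A alone, 0 and 3 with the 6 arrays alone, 1 and 1 with experiment as an additive term, 2 and 3 with 1 prior variance for all probe sets, and 7 and 17 with array weights. With the 6 arrays alone the calls were Ina, Tnnc2 and Zfp91, of which only Tnnc2 was among the 4 main calls. Leaving out 1 array gave 0 to 13 higher and 0 to 43 lower. With 50 mg/kg animal 2 alone against the 3 vehicle animals, the dosed spread being assumed like that of other groups, they were 0 and 1. The cause was not tested. The shared animal numbers did not pair the samples (correlations of deviations −0.075, 0.006 and 0.058), and the replicate block over the 6 arrays gave 0 and 0 calls (560 and 750 at an unadjusted p under 0.05). Median scaling without the quantile step left 1 higher and 2 lower. Of the named genes, Bche changed sign, at 0.05 with 50 mg/kg animal 2 alone and between −0.19 and 0.05 on leaving out 1 array (0.047 without 50 mg/kg animal 3). The log2 medians of immediate early transcription factors (−0.64 to −0.10), cortical neuron markers (−0.53 to −0.08) and hypothalamic region markers (0.40 to 1.07) kept their sign under all 17 alternatives.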

Other observations

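Several lists not yet described had values on 1 side more often than not, none with a member past the test. Of 13 imprinted neuronal genes, many of them strong in the hypothalamus, 5 were higher and 1 lower at 50 mg/kg at an unadjusted p under 0.05. Nnat, which encodes neuronatin, read 11.99, 13.12 and 12.32 at 50 mg/kg and 11.57, 10.97 and 11.97 with vehicle. Snrpn, a splicing factor gene, had a log2 difference of 0.79 ± 0.32 (SE, adjusted p = 0.379). Of 16 circadian clock genes, 4 were lower and none higher by the same rule. Bhlhe40, a clock repressor, read 8.79, 8.80 and 8.73 at 50 mg/kg and 9.29, 9.43 and 9.40 with vehicle, and the groups did not overlap. Nr1d1, the repressor REV-ERB alpha, had a log2 difference of −0.52 ± 0.22 (SE, adjusted p = 0.412).

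Of 31 cytoskeleton and axon growth genes, 8 were lower and 1 higher at an unadjusted p under 0.05. Marcks, a substrate of protein kinase C at the membrane, was the higher one, at 11.09, 11.42 and 11.00 at 50 mg/kg and 10.73, 10.55 and 10.69 with vehicle. Kif5a, a kinesin motor of axonal transport, had a log2 difference of −0.42 ± 0.14 (SE, adjusted p = 0.258), and a further Kif5a probe set gave −0.11. Of 46 respiratory chain genes, 37 had a log2 difference above 0 and none an unadjusted p under 0.05.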
